A study of Mus musculus with 16 samples.

Results

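The 10 genes described here encode the machinery that phosphorylates and uses serine- and arginine-rich (SR) splicing factors: the CDC-like kinases Clk1, Clk2, Clk3 and Clk4, the SR protein kinases Srpk1 and Srpk2, the SR proteins Srsf2, Srsf5 and Srsf7, and the SR-like splicing regulator Tra2a. They were taken by symbol from a table of 47593 genes, and all 10 were found. Clk1 leads the list because its level was seen to be higher in rapamycin-fed mice in these same libraries, so the values of the diet comparison chose the list, and they are given below for the 10 genes as a description. Where the text says how many of the 10 passed the test of the diet difference, the share of all genes that passed stands beside it, and the count supports nothing about them.

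SR proteins bind exonic sequences and recruit the spliceosome, and the phosphorylation of their serine-arginine tails decides where they are. SRPK kinases phosphorylate them in the cytoplasm and so allow their import into the nucleus, where they gather in nuclear speckles, and CLK kinases add further phosphates that release them from the speckles to the sites of splicing. CLK1 and CLK4 are close paralogs. Clk1 and Clk4 transcripts are known to be held in the nucleus with introns still in place, and many SR protein genes, Srsf2, Srsf7 and Tra2a among them, carry poison exons through which the level of the mature mRNA is regulated.

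RNA from cortex of 16 mice was sequenced. All of the mice were heterozygous 5xFAD, which carry human transgenes with familial Alzheimer's disease mutations under the neuron-specific mouse Thy1 promoter on a C57BL/6-SJL hybrid background, and no library came from a mouse without the transgenes. From 2 to 5 months of age they ate a diet with microencapsulated rapamycin, an inhibitor of the kinase mTOR, or a vehicle diet with the capsule carrier alone. There were 4 groups, namely females on the vehicle diet (FC) or on rapamycin (FR) and males on the vehicle diet (MC) or on rapamycin (MR), with n = 4 libraries each, numbered 1 to 4 except FR, which has 1, 2, 4 and 5. The labels also give a batch: FC4, FR4, FR5, MC4 and MR4 were batch 2 and the other 11 libraries batch 1, so batch 2 holds 2 vehicle and 3 rapamycin libraries. The study's text speaks of pooled cortical samples, whereas the labels name 4 replicates per group, so what a library stands for is not settled between the sources. P-values here measure the spread between these libraries.

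The libraries held 16393501 to 20593089 counted read pairs. All 10 genes passed the filter on low counts, with 322 read pairs at the least (Clk2 in FC3) and 5841 at the most (Srpk2 in FC3). Cortical neuron markers summed to 3577 to 6107 CPM (read pairs scaled to a common library size) in every library, astrocyte markers to 698 to 1212 CPM, oligodendrocyte markers to 3263 to 8728 CPM and microglia markers to 172 to 389 CPM, whereas choroid plexus markers ran from 9.20 CPM in FC4 to 1821 CPM in MC4. In whole cortex, fewer cells of a type and less RNA per cell cannot be told apart. The library labelled male rapamycin 4 (MR4) went against its label: Xist stood at 512 CPM and 4 Y-linked genes summed to 0 CPM, against 104 to 133 CPM in the other 7 male libraries. It was kept in its labelled group. Fitted diet differences over both sexes and in males, the interaction and the batch calls are given without MR4 too, for some or all of the 10 genes. The overlap counts, the values of the sex comparison on vehicle and the named genes of the lists are given only with it. In FR2, MR2 and FR1, long genes were low relative to short ones: their slopes of log2 level, less the mean of each gene, on log2 exon length were -0.13, -0.12 and -0.12, against -0.03 to 0.06 in the other rapamycin libraries and 0.000395 to 0.10 in vehicle libraries, and mitochondrial genes took 6.98%, 6.99% and 6.88% of read pairs against 2.64% to 5.47% in vehicle libraries. These 3 libraries also held the 3 highest levels of Clk1, so the diet values over both sexes are given with and without them.

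Promoter sequence, from 250 bases before the transcription start up to it, was matched in RefSeq (GRCm38.p6) for 9 of the 10 genes, as 11 promoters, because Srpk2 has several. Clk1 has no entry. The letters TGACG, the core of the site that CREB and ATF factors bind, were searched on both strands together with the full palindrome TGACGTCA, which contains TGACG on each strand. TGACGTCA was found in 2 of the 11 promoters, those of Clk4 and Tra2a, and in 1.55% of all 32851 mouse promoters of this length. TGACG was found in 5 of the 11, those of Clk2, Clk3, Clk4, Srsf5 and Tra2a, and in 17.8% of all. All 250 bases of the Clk3 window lie on exon of Clk3 itself in the annotation used for counting. The GC box GGGCGG was found in 9 of the 11 and in 32.7% of all, CCAAT in 4 and in 33.8%, and CCATNTTG, the core of the YY1 site, in 1 (Srsf2) and in 3.36%. A match is only a stretch of letters, not a shown binding site. The promoters of the 3 genes other than Clk1 with the larger differences between diets (Clk4, Srsf2 and Srsf7) and of 3 genes that differed between batches (Tra2a, Clk2 and Srsf5) are shown 5′ to 3′ with TGACG or its complement in capitals. The Clk4 window is chr11:51262864-51263113 on the plus strand, inside the span of the gene in the annotation used for counting but on none of its exons. The other windows lie at chr11:116853095-116853344 (Srsf2, minus), chr17:80207306-80207555 (Srsf7, minus), chr6:49264053-49264302 (Tra2a, minus), chr3:89164545-89164794 (Clk2, plus) and chr12:80945249-80945498 (Srsf5, plus).
Clk4: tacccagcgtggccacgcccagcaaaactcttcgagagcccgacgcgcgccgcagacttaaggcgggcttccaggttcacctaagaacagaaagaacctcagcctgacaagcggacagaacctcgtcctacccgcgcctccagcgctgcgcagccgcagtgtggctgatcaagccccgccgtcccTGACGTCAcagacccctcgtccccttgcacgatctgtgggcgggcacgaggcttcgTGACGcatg
Srsf2: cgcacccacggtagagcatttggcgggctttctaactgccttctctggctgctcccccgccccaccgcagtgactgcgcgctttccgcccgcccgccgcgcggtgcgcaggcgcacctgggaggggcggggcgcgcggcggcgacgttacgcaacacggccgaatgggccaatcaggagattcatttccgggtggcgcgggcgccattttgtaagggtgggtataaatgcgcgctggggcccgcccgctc
Srsf7: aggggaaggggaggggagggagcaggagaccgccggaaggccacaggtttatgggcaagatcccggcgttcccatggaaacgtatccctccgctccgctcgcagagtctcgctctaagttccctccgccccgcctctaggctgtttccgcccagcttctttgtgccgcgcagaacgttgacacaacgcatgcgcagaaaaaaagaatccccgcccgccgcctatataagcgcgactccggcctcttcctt
Tra2a: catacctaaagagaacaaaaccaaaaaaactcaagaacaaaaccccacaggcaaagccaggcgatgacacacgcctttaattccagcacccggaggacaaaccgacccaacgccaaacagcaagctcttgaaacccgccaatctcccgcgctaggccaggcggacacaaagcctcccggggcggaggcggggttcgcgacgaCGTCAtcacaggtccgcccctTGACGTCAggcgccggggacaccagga
Clk2: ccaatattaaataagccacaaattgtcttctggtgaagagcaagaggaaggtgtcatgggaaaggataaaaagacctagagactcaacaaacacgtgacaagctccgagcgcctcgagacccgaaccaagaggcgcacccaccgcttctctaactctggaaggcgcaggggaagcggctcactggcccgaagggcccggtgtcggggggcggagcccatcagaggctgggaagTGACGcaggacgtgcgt
Srsf5: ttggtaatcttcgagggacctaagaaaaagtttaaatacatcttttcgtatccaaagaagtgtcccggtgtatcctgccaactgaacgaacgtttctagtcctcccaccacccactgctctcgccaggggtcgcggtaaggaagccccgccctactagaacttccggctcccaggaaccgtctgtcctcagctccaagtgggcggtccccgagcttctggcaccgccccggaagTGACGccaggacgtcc

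The genes also share an exon structure with many non-coding transcripts. Positions given here span the exons on which the authors counted, whereas transcripts and shares are those of GENCODE M21 (GRCm38). Clk1 lies at chr1:58410189-58424066 on the minus strand and has 13 transcripts, of which 1 codes for protein and 7 are retained-intron models. Of its 8132 exon bases 77.9% lie outside the coding transcript. Clk4 lies at chr11:51261730-51281766 on the plus strand with 14 transcripts, 4 coding and 7 with a retained intron, and 62.2% of its exon bases lie outside coding transcripts. The corresponding share was 74.0% for Tra2a (chr6:49243924-49264033), 58.5% for Srsf5 (chr12:80945504-80950507), 58.4% for Clk3 (chr9:57750711-57765860) and 56.8% for Clk2 (chr3:89164795-89176921). It was 50.1% for Srpk1 (chr17:28587648-28622521), 48.2% for Srpk2 (chr5:23503264-23684617), 32.3% for Srsf2 (chr11:116849901-116853094) and 27.4% for Srsf7 (chr17:80200089-80207305). The authors counted pairs on all exons of a gene in their annotation together. A spliced mRNA and a retained-intron transcript thus add to the same count and cannot be told apart in these values. For Clk3, Srpk1 and Srsf7 the counted exons held 2494, 9647 and 2279 bases, against 8450, 12376 and 3550 in GENCODE. The shares above therefore do not describe the counted exons of these genes. Counting ignored strand: of the counted exon bases, Srsf2 shares 25.3% with Mettl23 and Mfsd11, Clk3 23.3% with Edc3 and Srpk2 6.99% with Kmt2e, all on the opposite strand. Clk4 shares 1.02% with Gm25082, which lies on the same strand. These overlaps make the counts of the 4 genes less certain than those of the other 6 genes.

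Per length of all annotated exons, the SR proteins stood above the kinases on average. In the 8 vehicle libraries the mean level in RPKM (CPM divided by the exon length in kilobases) was 46.5 ± 6.96 (SD) for Srsf5, 34.3 ± 3.05 for Srsf7 and 24.1 ± 2.01 for Srsf2. Srpk2 followed at 18.4 ± 2.00 and Clk3 at 13.96 ± 3.01 RPKM. Tra2a (9.21 ± 2.24), Clk1 (8.12 ± 1.59), Clk4 (7.07 ± 1.495) and Srpk1 (6.83 ± 0.872) came next, each within an SD of its neighbours in this order, and Clk2 was lowest at 4.87 ± 1.29 RPKM. Neighbours among the top 3 had ranges that did not overlap for Srsf2 and Srsf7 (21.1 to 26.4 and 29.6 to 38.8 RPKM), while those of Srsf7 and Srsf5 did (37.5 to 58.8 for Srsf5). The exon length in the table equalled that of GENCODE for 7 of the 10 genes and was shorter for Clk3, Srpk1 and Srsf7, whose RPKM therefore depend on the annotation used. The length also includes bases outside coding transcripts, 77.9% of it for Clk1 but 32.3% for Srsf2. The order of SR proteins and kinases therefore depends on this choice of length, and levels per coding length were not computed.

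**Figure D1:**
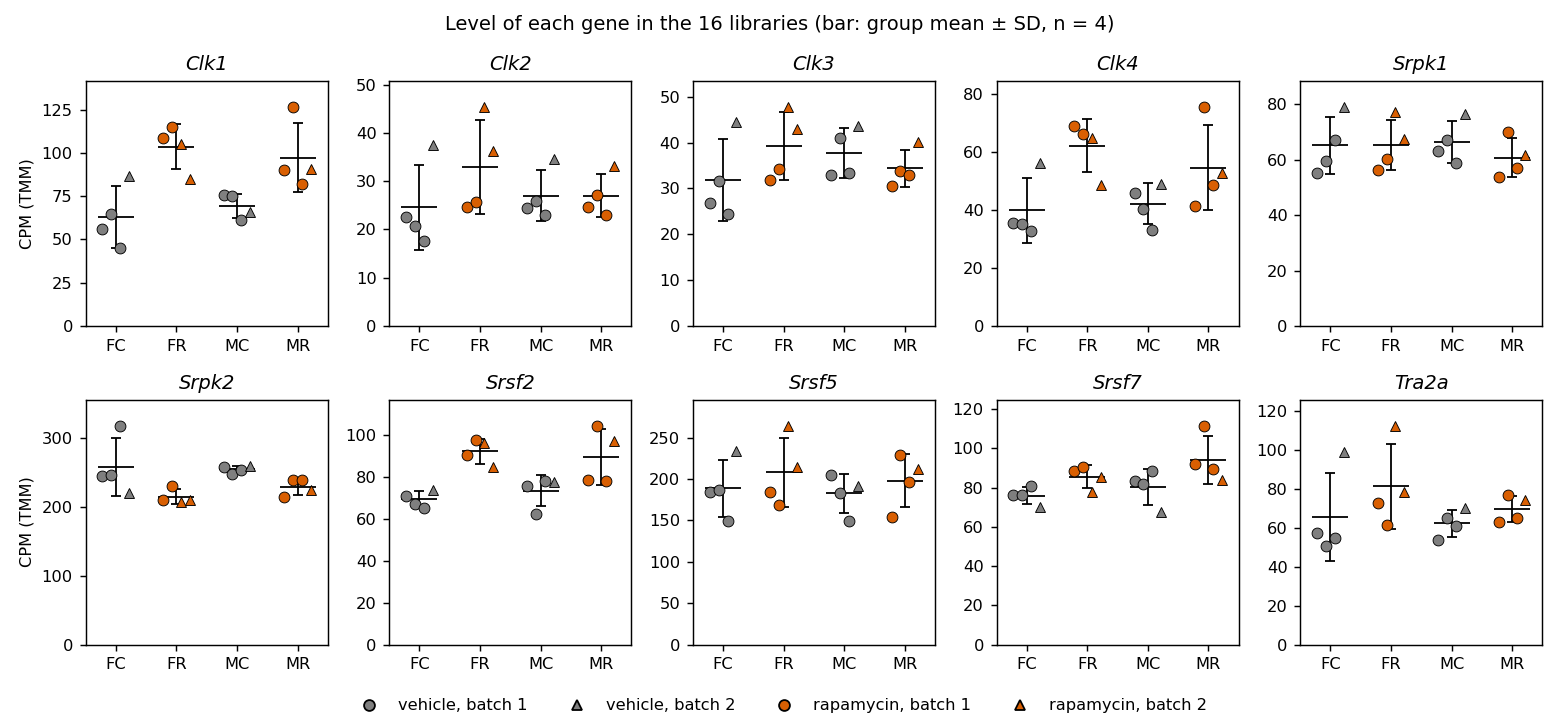
CPM (normalized by TMM) of each gene in the 16 libraries, by group on the horizontal axis. Grey points are vehicle and orange points rapamycin libraries, circles batch 1 and triangles batch 2, and bars the group mean ± SD (n = 4). Clk1, Clk4, Srsf2 and Srsf7 sit higher in orange than in grey on average, while for Clk2 all 5 triangles (33.2 to 45.3 CPM) lie above all 11 circles (17.5 to 27.2 CPM).

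The first comparison asks how the cortex of rapamycin-fed 5xFAD mice differed from that of vehicle-fed mice, over both sexes. Clk1 and Clk4 were higher by the largest amounts among the 10 genes, Srsf2 and Srsf7 by smaller amounts, and the mean of Srpk2 lay below that of the vehicle mice. In this fit 4 of the 10 genes passed an adjusted p of 0.05, all 4 higher, where 13.3% of the 16553 genes tested passed (6.46% higher and 6.86% lower). The list was chosen on this contrast, so nothing is read from that count. The median log2 fold change was 0.16 over the 10 genes and 0.02 over all genes tested, with 8 of the 10 above 0.

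Clk1, a dual-specificity kinase that phosphorylates SR proteins and itself, read 55.7, 64.7, 44.8 and 86.4 CPM in FC1 to FC4 and 109, 115, 105 and 84.9 CPM in FR1, FR2, FR4 and FR5. In males it read 75.4, 74.9, 61.0 and 65.6 CPM in MC1 to MC4 and 89.8, 126, 82.1 and 90.8 CPM in MR1 to MR4. Every rapamycin male lay above every vehicle male. In females FC4, of batch 2, reached the level of FR5. The fitted log2 fold change was 0.60 (SE 0.12), or 1.52-fold, from 66.1 ± 12.9 CPM on vehicle to 100.3 ± 15.8 CPM on rapamycin (SD, n = 8). Leaving out MR4 gave 0.64, and leaving out FR1, FR2 and MR2 together, a choice made after seeing the data, gave 0.36.

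Clk4, the paralog of Clk1, followed it closely. It read 35.4, 35.0, 32.6 and 56.3 CPM in FC1 to FC4 and 69.1, 66.1, 64.7 and 48.8 CPM in FR1, FR2, FR4 and FR5. In males it read 46.0, 40.4, 33.1 and 49.1 CPM in MC1 to MC4 and 41.5, 75.4, 48.6 and 52.6 CPM in MR1 to MR4. The diets overlapped in both sexes, with FC4 above FR5 and MR1 below MC1. The log2 fold change was 0.50 (SE 0.14), or 1.42-fold. Within batch 1 alone it was 0.70 and within batch 2 alone 0.06, and without FR1, FR2 and MR2 it was 0.17. The ratio of Clk1 to Clk4 counts stayed between 1.34 in MC4 and 2.16 in MR1.

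Clk2 and Clk3, the other CLK kinases, had smaller diet differences. Clk2 had a log2 fold change of 0.14 (SE 0.09) with 25.8 ± 6.85 CPM on vehicle and 30.0 ± 7.74 CPM on rapamycin. Clk3 had 0.03 (SE 0.09) with 34.8 ± 7.51 and 36.8 ± 6.09 CPM, and its sign changed when single libraries were left out (-0.01 to 0.08). Without FR1, FR2 and MR2 the values were 0.07 for Clk2 and -0.03 for Clk3. The ratio of Clk1 to Clk3 counts was 1.504 to 2.29 in vehicle libraries and 1.98 to 3.74 in rapamycin libraries.

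The SR protein kinases had log2 fold changes below 0. Srpk2, the more abundant SRPK here, read 245, 246, 318 and 220.1 CPM in FC1 to FC4 and 211, 230.4, 208 and 210.2 CPM in FR1, FR2, FR4 and FR5. In males it read 257, 248, 254 and 259.8 CPM in MC1 to MC4 and 214, 239, 239 and 224 CPM in MR1 to MR4. All 4 rapamycin males lay below all 4 vehicle males, and in females FC4 lay below FR2. The log2 fold change was -0.19 (SE 0.07). Srpk1, the other SRPK, ranged from 55.3 to 79.0 CPM on vehicle and 53.8 to 77.3 CPM on rapamycin, with a log2 fold change of -0.09 (SE 0.07). Without FR1, FR2 and MR2 the values were -0.19 for Srpk2 and -0.17 for Srpk1.

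Among the substrates, Srsf2 (SC35), a marker protein of nuclear speckles, read 71.0, 67.1, 64.97 and 73.6 CPM in FC1 to FC4 and 90.3, 97.6, 96.3 and 84.7 CPM in FR1, FR2, FR4 and FR5, without overlap. In males it read 75.4, 62.4, 78.1 and 77.7 CPM in MC1 to MC4 and 78.4, 104, 78.1 and 97.2 CPM in MR1 to MR4, and MR1 and MR3 were level with the higher vehicle males. Its log2 fold change was 0.34 (SE 0.08), or 1.27-fold, and without FR1, FR2 and MR2 it was 0.21.

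Srsf7 (9G8), an SR protein that also acts in mRNA export, read 76.3, 76.2, 80.6 and 70.3 CPM in FC1 to FC4 and 88.6, 90.7, 77.7 and 85.4 CPM in FR1, FR2, FR4 and FR5. In males it read 83.4, 82.0, 88.4 and 67.4 CPM in MC1 to MC4 and 92.0, 112, 89.2 and 83.7 CPM in MR1 to MR4. In each batch taken by itself every rapamycin library was above every vehicle library. The log2 fold change was 0.23 (SE 0.06), or 1.17-fold, and 0.19 without FR1, FR2 and MR2. Srsf5 (SRp40) ranged from 149.5 to 234 CPM on vehicle and 154 to 264 CPM on rapamycin, with a log2 fold change of 0.09 (SE 0.10). Tra2a, which binds GAA-rich exonic enhancers, ranged from 50.7 to 99.1 and from 61.3 to 112 CPM, with 0.19 (SE 0.10). Without FR1, FR2 and MR2 the values were 0.06 for Srsf5 and 0.13 for Tra2a.

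Counted by whether the diets overlapped within batch 1 (6 vehicle and 5 rapamycin libraries), Clk1 and Srsf7 were above without overlap, as were 2.22% of all genes, and Srpk2 was below, as were 2.37%. Within batch 2 Srsf2 and Srsf7 were above, as were 13.3% of all genes. Over females Srsf2 was above, as were 2.13%, and over males Clk1 was above, as were 2.82%, and Srpk2 below, as were 3.30%. Over all 16 libraries none of the 10 genes separated the diets, where 0.127% of all genes did upward and 0.362% downward.

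The number of genes passing in this comparison rested on few libraries. Without MR4 it was 4 of the 10 as before, beside 1591 of 16861 genes. The log2 fold changes were then 0.55 for Clk4, 0.34 for Srsf2, 0.23 for Srsf7, -0.20 for Srpk2 and -0.06 to 0.23 for Srpk1, Clk3, Srsf5, Clk2 and Tra2a. Without FR2 or without MR2, 2 of the 10 passed, namely Clk1 and Srsf2, beside 868 of 16864 and 988 of 16883 genes. Without FR1, FR2 and MR2 together 0 of 10 passed, and 1 of 17233 genes tested. With the exon length slope of each library as a covariate 0 of 16553 genes passed (965 at an unadjusted p under 0.05), and the log2 fold change was 0.29 for Clk1, 0.18 for Clk4, 0.16 for Srsf2 and 0.14 for Srsf7. With the mitochondrial share as a covariate 0 passed (1318 unadjusted) and these values were 0.38, 0.16, 0.16 and 0.13. Slope and mitochondrial share move with the diet in these libraries, so their part in the difference cannot be told apart from that of the diet.

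**Figure D2:**
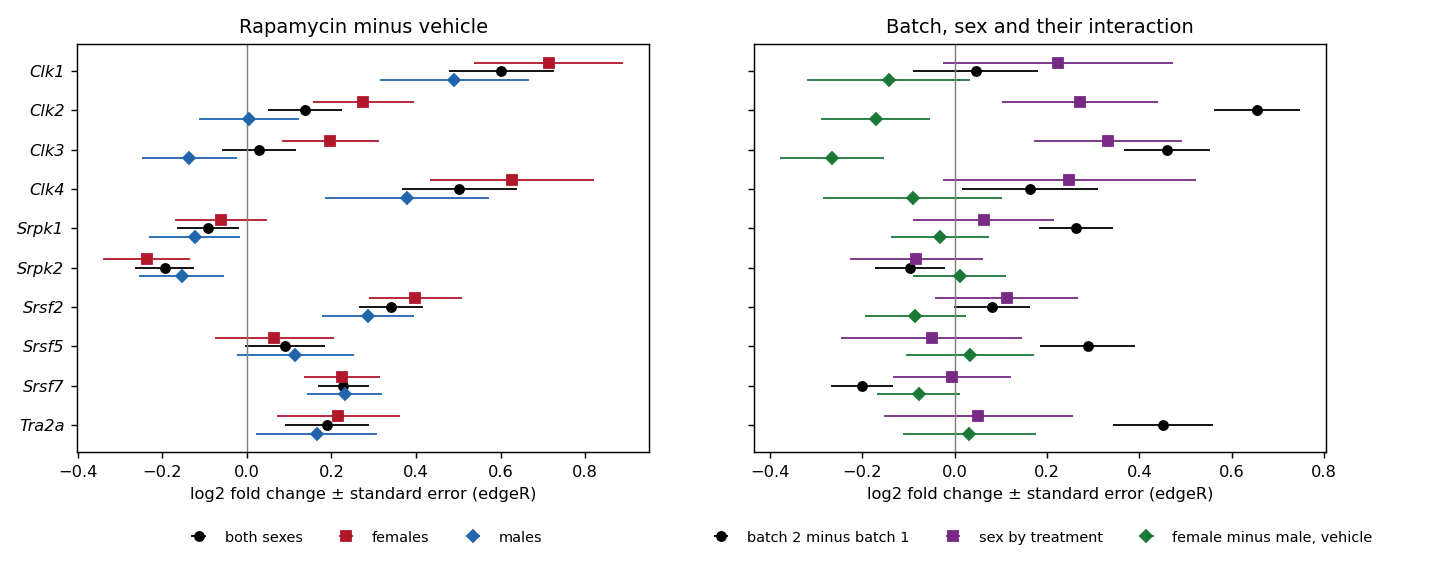
Log2 fold change ± standard error from edgeR for each gene. On the left are the diet differences over both sexes (black), in females (red) and in males (blue); on the right are batch 2 minus batch 1 (black), the interaction of sex and treatment (purple) and female minus male on vehicle (green). Clk1 is highest on the left in all 3 fits (0.60, 0.71 and 0.49), and Clk2 is highest on the right for batch (0.65).

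The next question was whether the diet difference depended on sex. In females the log2 fold change was 0.71 (SE 0.18) for Clk1, 0.63 (SE 0.19) for Clk4, 0.40 (SE 0.11) for Srsf2 and 0.22 (SE 0.09) for Srsf7. In males it was 0.49 (SE 0.18), 0.38 (SE 0.19), 0.29 (SE 0.11) and 0.23 (SE 0.09). Without MR4 the male values were 0.54, 0.45, 0.26 and 0.24, and without MR2 they were 0.33, 0.16, 0.19 and 0.16. Without FC4 the female values were 0.99, 0.87, 0.42 and 0.25. Without FR1, FR2 and MR2 together Clk1 was 0.44 in females and 0.31 in males, and Clk4 was 0.22 and 0.14. Clk3 was the gene with the widest gap, 0.20 (SE 0.11) in females and -0.14 (SE 0.11) in males, followed by Clk2 with 0.28 (SE 0.12) and 0.00 (SE 0.12). Without MR4 the male values were -0.09 for Clk3 and 0.07 for Clk2. The difference itself, tested with the edgeR quasi-likelihood test as an interaction, was 0.33 (SE 0.16) for Clk3 with an unadjusted p of 0.0535 and an adjusted p of 0.999. For Clk1 it was 0.22 (SE 0.25, adjusted p = 0.999). By edgeR 0 of the 10 genes passed, 0 at an unadjusted p under 0.05 and 0 by DESeq2, where 2.17% of all genes were under 0.05 unadjusted and 0% passed by either tool. Without FC4 the interaction was 0.498 for Clk1 and 0.499 for Clk4, and 3 of the 10 genes were under 0.05 unadjusted (722 of 16776 genes were), with 0 passing (adjusted p = 0.952 for both). Without MR4 it was 0.17 for Clk1, 0.18 for Clk4 and 0.29 for Clk3, and that of Srpk1 and Tra2a went from 0.06 and 0.05 to -0.02 and -0.06, with 0 passing. Without MR2 it was 0.46 for Clk4, with 1 of the 10 under 0.05 unadjusted and 0 passing. A difference between the sexes was not detectable at this size, which does not show that the sexes responded alike. Within a sex by itself the same edgeR fit passed 0 of the 10 genes in females (0.0121% of all genes) and 0 in males (0% of all genes). At an unadjusted p under 0.05 these numbers were 6 in females, beside 23.1% of all genes, and 3 in males, beside 12% of all genes, and DESeq2 passed 3, beside 8.98% of all genes, and 0, beside 0.109%.

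On vehicle alone, females and males were compared as a baseline. The 10 genes differed little between them, with log2 fold changes, female minus male, from -0.27 for Clk3 to 0.03 for Srsf5. By edgeR 0 of 10 passed, 1 at an unadjusted p under 0.05 (Clk3, SE 0.11, adjusted p = 0.999) and 0 by DESeq2, where 0.0121% of all genes passed by edgeR and 0.0544% by DESeq2, and 3.55% were under 0.05 unadjusted.

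The batch given in the labels was not used to choose the genes, and it separated a partly different set of them. Of the 10 genes 6 differed between batches, 5 higher and 1 lower in batch 2, where 35.5% of all genes did (19.1% higher, 16.5% lower). Clk2 rose from a range of 17.5 to 27.2 CPM (median 24.4) over the 11 libraries of batch 1 to 37.4, 45.3, 36.3, 34.6 and 33.2 CPM in FC4, FR4, FR5, MC4 and MR4, without overlap, as for 4.72% of all genes. Its log2 fold change was 0.65 (SE 0.09, adjusted p = 8.62e-05). Clk3 rose from 24.5 to 40.9 CPM (median 32.9) to 44.5, 47.7, 42.9, 43.6 and 40.1 CPM in the same libraries, with only MR4 within the range of batch 1 (0.46, SE 0.09, adjusted p = 0.00131). Tra2a rose from 50.7 to 76.9 CPM (median 61.3) to 99.1, 112, 78.2, 70.0 and 74.0 CPM (0.45, SE 0.11, adjusted p = 0.00390).

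Srsf5 and Srpk1 rose by less, with log2 fold changes of 0.29 (SE 0.10, adjusted p = 0.0378) and 0.26 (SE 0.08, adjusted p = 0.0166), and Srsf7 fell by 0.20 on the log2 scale (SE 0.07, adjusted p = 0.0268). These 3 calls were lost in turn when some libraries were left out: without FC4 or without FR4 only Clk2, Clk3 and Tra2a passed, and without MR4 all but Srsf7 of the 6 did. Clk1 (0.05, SE 0.13, adjusted p = 0.822), Clk4 (0.16, SE 0.15, adjusted p = 0.412), Srsf2 (0.08, SE 0.08, adjusted p = 0.469) and Srpk2 (-0.10, SE 0.08, adjusted p = 0.343) did not pass. As a description, the 4 genes that passed for diet and the 6 that passed for batch shared only Srsf7, with opposite signs. The split depends on the threshold, since Tra2a (0.19 for diet, 0.45 for batch) had a diet difference near that of Srsf7 (0.23). Nuclear long non-coding RNAs moved with the batch as well: 5 of 6 listed rose, with a median log2 fold change of 1.68 against 0.02 over all genes, and Malat1 was 124 to 235 CPM in batch 1 and 260 to 1053 CPM in batch 2. Their part in the rise of Clk2, Clk3 and Tra2a was not tested.

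**Figure D3:**
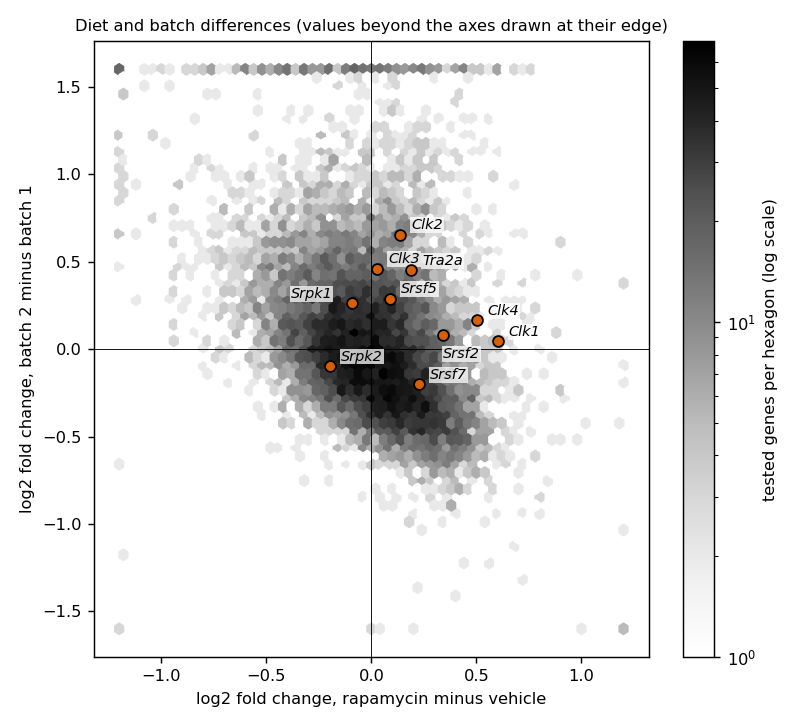
Log2 fold change of rapamycin minus vehicle (horizontal) against batch 2 minus batch 1 (vertical) for all tested genes, as grey hexagons shaded by gene number on a log scale, with the 10 genes in orange. Both axes come from the same 16 libraries. Clk1 (0.60, 0.05) and Clk4 (0.50, 0.16) lie far right near the horizontal line, Clk2 (0.14, 0.65) and Clk3 (0.03, 0.46) lie high near the vertical one, and Srsf7 (0.23, -0.20) lies right of and below the origin.

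Other genes were counted from 8 lists, with 137 of their 139 genes tested. Besides splicing factors and related genes, the lists hold nuclear long non-coding RNAs and cold and heat shock genes. Of these 12 rose and 9 fell with rapamycin by edgeR at an adjusted p under 0.05, a share of 15.3% beside 13.3% of all genes, and the median log2 fold change was 0.02 for both. Among 9 other SR proteins 2 rose, Srsf3 (0.26, SE 0.08, adjusted p = 0.0352) and Srsf6 (0.22, SE 0.07, adjusted p = 0.0425), and 0 fell, with a list median of 0.13. Of 13 other kinases of this class 0 rose and 3 fell, among them Dyrk2, a dual-specificity kinase, from 24.4 ± 3.87 to 14.1 ± 4.78 CPM (-0.87, SE 0.16, adjusted p = 0.0104), and Cdk12, which phosphorylates RNA polymerase II (-0.43, SE 0.10, adjusted p = 0.0169). Their median was -0.19, opposite in sign to that of the SR proteins.

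Of 20 nuclear speckle and SR-related genes 3 rose and 1 fell. Ccnl2, a cyclin found in speckles, rose by 0.38 (SE 0.11, adjusted p = 0.0302), Arglu1 by 0.34 (SE 0.10, adjusted p = 0.0277), and Scaf8 fell by 0.30 (SE 0.08, adjusted p = 0.0210). Of 26 hnRNP and PTB genes 2 rose, Hnrnpu (0.37, adjusted p = 0.0204) and Hnrnph3 (0.31, adjusted p = 0.0390), and 1 fell, Hnrnpul2 (-0.27, adjusted p = 0.0264). Of 33 core spliceosome genes 5 rose and 3 fell: Snrpf (0.57, adjusted p = 0.0244) and Snrpd2 (0.43, adjusted p = 0.0186), which encode small Sm ring proteins, were among the former, and Prpf8 (-0.49, adjusted p = 0.0104) and Snrnp200 (-0.44, adjusted p = 0.0119), which encode very large subunits of the U5 particle, among the latter.

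Of 22 neuronal splicing factors 1 fell, Nova2 (-0.35, adjusted p = 0.0308), and of 6 nuclear long non-coding RNAs and 8 cold and heat shock genes 0 passed by edgeR. Without FR1, FR2 and MR2 together 0 of the 137 genes passed in either direction, and also 0 with the slope or the mitochondrial share as a covariate. Of all genes 1 of 17233 and 0 of 16553 passed in these fits. Without 1 library at a time the number that rose was, at the lower end, 2 without FR1, FR2 or MR2. It was 4 without FC1 or MC4 and 7 without FC2 or FC3. The number that fell was 4 without FR1 and 16 without FR4. Of all genes 719 of 16865 passed without FR1 and 3352 of 16727 without FR4. Among the cell type markers Kcnj13 fell (-1.52, adjusted p = 0.0379) as 1 of 5 choroid plexus markers, whose sum was 9.20 to 1821 CPM on vehicle and 21.8 to 176 CPM on rapamycin. Of 6 cortical neuron markers 1 fell, and of the markers of astrocytes, oligodendrocytes, microglia, endothelium and striatum 0 passed by edgeR. Their part in the values of the 10 genes was not tested.

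**Figure D4:**
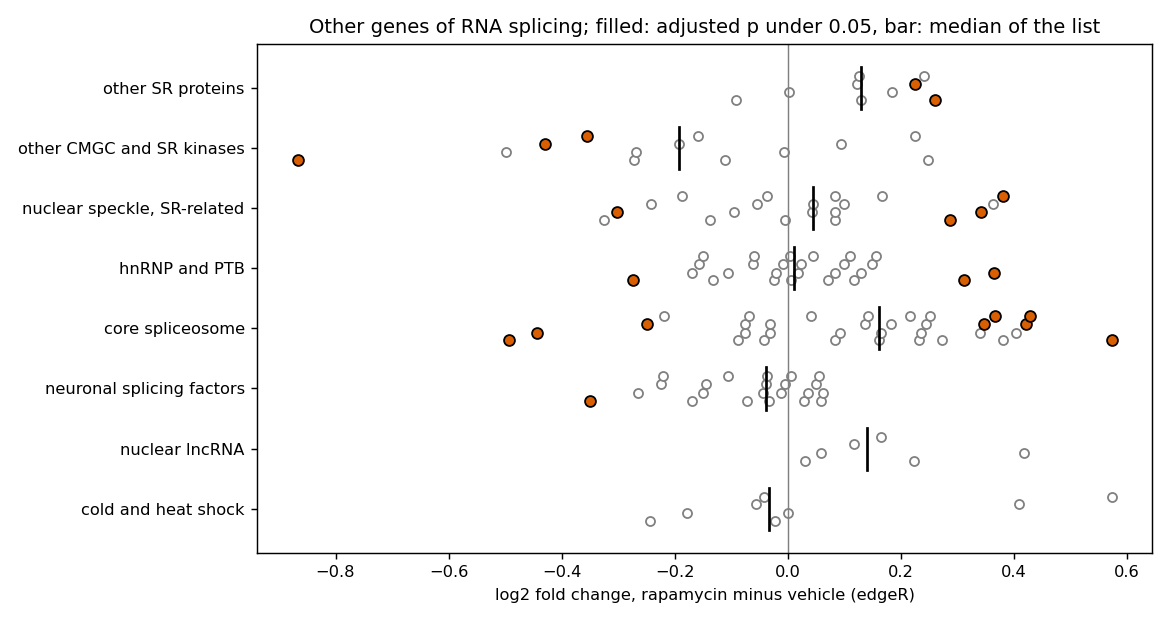
Log2 fold change of rapamycin minus vehicle for each tested gene of the 8 lists, 1 list per row. Filled orange points passed an adjusted p of 0.05 by edgeR, open points did not, and the vertical bar is the median of the list. The kinases have their median below 0 (-0.19) and the other SR proteins above it (0.13), and the core spliceosome has points that passed on both sides.

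How the 10 genes varied together is a description over 16 libraries, which share batches and depth. As measured, the log2 CPM of Clk1 and Clk4 had a Pearson r of 0.91, that of Clk2 and Clk3 0.92, and that of Clk2 and Tra2a 0.88. With the mean of each group and the batch difference removed, the values were 0.85, 0.71 and 0.76, so these pairs still moved together within groups. Clk1 and Clk2 went from 0.50 to 0.76. Srsf2, by contrast, had 0.81 with Clk1 as measured and 0.47 after removal. Srpk2 ran against most of the others, with -0.53 to Clk1 and -0.64 to Clk2 after removal. Within groups Clk1 also moved with the exon length slope (r = -0.50), the mitochondrial share (0.37) and Malat1 (0.54), and Clk4 with Malat1 at 0.71. These values were not particular to Clk1 and Clk4. Over the 10 genes r with the slope ran from -0.55 (Srsf2) to 0.19 (Srpk2). With the mitochondrial share it ran from -0.25 (Clk3) to 0.66 (Srsf2), and with Malat1 from -0.07 (Srsf7) to 0.75 (Srpk1).

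**Figure D5:**
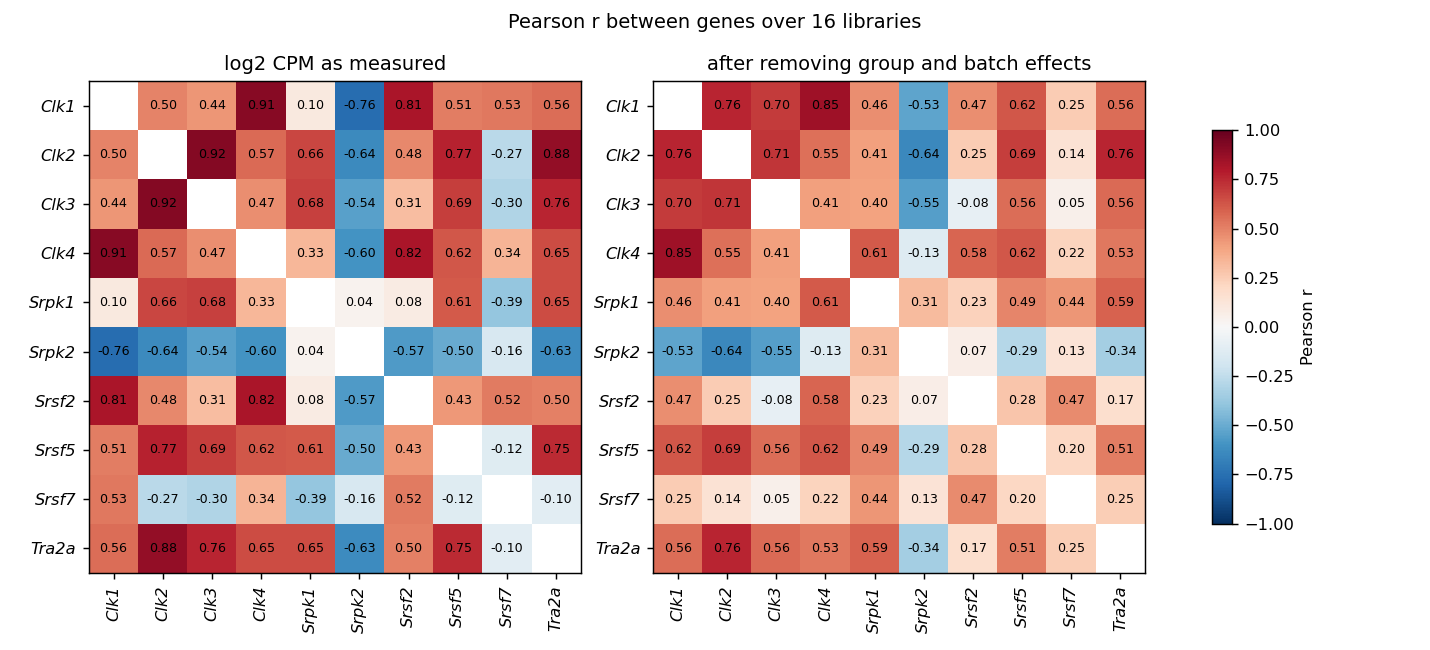
Pearson r between each pair of genes over 16 libraries, for log2 CPM as measured (left) and after removing group means and the batch difference (right), on a scale from -1 (blue) to 1 (red). Clk1 with Clk4 stays high in both (0.91 and 0.85), and the row of Srpk2 is mostly blue.

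Ranked by r with Clk1 after this removal among 16552 genes, Clk4 stood at 83, Clk2 at 287, Clk3 at 536, Srsf5 at 1030 and Tra2a at 1567, while Srpk2 stood at 14587. Among the 10128 other genes with a mean of at least 10 CPM the most similar were Sirt7 (0.96), Ssh3 (0.95), Msantd2 (0.93), Suv420h2 (0.93) and Adamts10 (0.93). The most opposite were Cand1 (-0.96), Cul4b (-0.95) and Champ1 (-0.95). What these genes share with Clk1 here is only their rise and fall from library to library.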

How the data were processed

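RNA from cortex was enriched for poly(A), sequenced as paired 150-base reads and deposited by the authors as read pair counts per gene, with no normalization or filter. Per the labels and methods, the authors used FastQC 0.11.9, Trimmomatic 0.39, HISAT2 2.2.1 against GRCm38 and featureCounts 2.0.3 without strand, at whole-gene level, which cannot separate splice forms. The tables of single groups held the same counts, with 0 differing cells. The 10 genes and the gene lists were chosen with earlier results of these data known.

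The tests used edgeR 4.0.16 (R 4.3.3) on genes that passed filterByExpr at a minimum count of 10, with TMM factors and the quasi-likelihood test, Benjamini-Hochberg adjustment over all 16553 genes and a threshold of 0.05. Diet and batch were fitted with sex, diet and batch as terms, and the sexes and their interaction with the 4 groups and batch. CPM and RPKM use TMM library sizes. Alternatives were DESeq2 1.42.0 (test and size factors), no filter, no batch term, each batch alone, a replicate block, 2 library measures as covariates and each library left out. The exon length slope is that of a library's log2 CPM, less each gene's mean, on log2 exon length. The code was tested on simulated data. Beside the 10 genes, the text names up to 2 genes per splicing list with the largest rise and 2 with the largest fall among those passing, the 5 genes most and 3 least correlated with Clk1, and library measures. Kcnj13 was named after its values were seen. Some items are not reported here. Counting error is small at this depth, so the 4 libraries per group limit precision.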

Additional observations from a re-analysis of the deposited data

Results flagged for a closer look

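In groups of 4 libraries, the gap of the highest or lowest library to the next was set against the range of the group for the 10 genes in the 4 groups. In 3 of 40 such groups it exceeded Dixon's 95% limit, which chance alone passes in about 1 in 20 groups. Clk4 stood at 56.3 CPM in FC4, far above the other vehicle females, with a ratio of 0.885. Tra2a stood at 99.1 CPM in FC4, with a ratio of 0.859. FC4 is the single batch 2 library of its group, so library and batch cannot be told apart there. Srpk2 stood at 230.4 CPM in FR2, above the other rapamycin females, with a ratio of 0.871.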

How the results depend on the processing

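Of the 10 genes, 4 passed in rapamycin minus vehicle, beside 2205 of 16553 genes in all. The alternative runs, single libraries left out aside, gave 0 to 5. The number was 2 with no batch term, beside 142 of 16553 genes, and 0 in batch 2 alone, beside 3 of 17665. Adding the slope as a covariate gave 0, and so did adding the mitochondrial share, beside 0 of 16553 genes each time. Leaving out FR1, FR2 and MR2, a run added after seeing the data, gave 0, beside 1 of 17233. Fewer of all genes thus passed in these lower runs too. Over the libraries left out in turn the number passing was 2 to 4, beside 719 of 16865 genes (without FR1) to 3352 of 16727 (without FR4). These counts come from the contrast that chose the list and support nothing about its genes: Clk1 and Srsf2 passed each of these 16 times, Srsf7 13 times (not without FR2, MC4 or MR2) and Clk4 12 times (not without FC3, FR1, FR2 or MR2). Of the 137 listed genes tested, 12 rose and 9 fell. The numbers were 19 and 14 by DESeq2, beside 3086 of 16553 genes in all, and 0 and 1 with no batch term, beside 142. They were 0 and 0 in batch 2 alone, with the slope, with the mitochondrial share and without FR1, FR2 and MR2, beside the all-gene numbers given above. Leaving out libraries gave 2 to 17 higher and 4 to 16 lower. The low numbers were reached without FR1 (719 of 16865 genes in all) and the high ones without FR4 (3352 of 16727). In females 0 passed, but 3 by DESeq2, 2 with no filter on low counts and 2 in batch 1 alone (Clk1 1.03 and Clk4 0.98). In these runs the genes passing in all went from 2 to 1487 of 16553, 1678 of 30248 and 1290 of 16644. With a library left out 0 to 3 passed. It was 2 without FC4 or FR4, beside 233 of 16776 and 2104 of 16727 genes, and 3 without MR2, beside 462 of 16883. In males 0 passed, but 1 with no filter (526 of 30248 genes), and 0 to 0 with a library left out. Between batches 6 passed, beside 5884 of 16553 genes, and 2 with the slope as a covariate, beside 2083 of 16553. With a library left out 3 to 6 passed (3 without FC4 or FR4, beside 4265 of 16776 and 4292 of 16727 genes). The interaction and the female minus male comparison stayed at 0 of the 10 genes passing in every alternative run. Of all genes, 87 and 144 of 30248 passed in them with no filter. No called value changed sign. Batch 2 alone holds 5 libraries; beyond such smaller numbers of samples, the cause was not tested. Same-numbered libraries of different groups had an r, after removing group and batch means, of -0.43 to 0.37 (median 0.03, 21 pairs). Libraries with other numbers had -0.40 to 0.32 (median 0.01, 75 pairs). With means of so few libraries removed, these values cannot show whether the numbers pair the samples. With the replicate block in place of batch, 3 of the 10 genes passed in rapamycin minus vehicle, beside 1298 of 16553 genes, and 6 listed genes rose and 9 fell.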
